A study of Homo sapiens with 4 samples.

Results

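Probe sets of 10 genes of the BCL2 family, which regulates apoptosis, were followed in the human colon carcinoma line HCT116 on 4 Affymetrix arrays. The labels name the versions HCT116 wt and HCT116 wt/GFP, and each was grown once as a monolayer and once as spheroids, which are rounded multicellular aggregates. A condition therefore had 2 arrays, 1 of each line, no agent is named in the labels, and how the spheroids were formed, for how long, and how many cultures lay behind an array were not stated in the labels. The members were all probe sets, short groups of probes read as 1 value, whose single annotated symbol is one of the 10 genes. This gave 30 of the 54675 probe sets on the array, for 9 of the 19775 genes with such a probe set. BCL2L11 had 7 of them, MCL1 6, BCL2 and BCL2L1 4 each, BID 3, BAX and PMAIP1 2 each, and BAK1 and BIK 1 each. BBC3 had none, because the 1 probe set that carries its symbol also carries those of other genes, and so no value of BBC3 is given.

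The BCL2 family decides whether a cell opens the outer membrane of its mitochondria and dies by apoptosis. Guardian proteins such as BCL2, BCL2L1 (BCL-XL) and MCL1 hold the effectors BAX and BAK1 in check, and the effectors form pores that release cytochrome c when they are freed. The BH3-only proteins BCL2L11 (BIM), BID, BIK, PMAIP1 (NOXA) and BBC3 (PUMA) sense stress and either block the guardians or activate the effectors. Several of them are controlled through their transcription, BCL2L11 for instance by FOXO factors and PMAIP1 and BBC3 by p53, while MCL1 is a short-lived protein whose amount follows its synthesis closely.

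Values are signals on a linear scale as the array software gives them. Changes are differences of log2(signal + 14.0), spheroids minus monolayer, averaged over the lines, and understate changes of dim probe sets. Each error is the standard error (SE) of limma with the cell line as a block, and a probe set was called at an adjusted p under 0.05, where the Benjamini-Hochberg adjustment ran over all 32768 probe sets tested. Of the 30 member probe sets, 28 were tested and 2 lay below the brightness filter, a mean log2 value of 5.48. No combination of line and condition had a replicate array, so the p-values measure only the spread between these arrays, which may be technical, and the number of arrays limits their precision. Because these are bulk samples, fewer cells with a transcript and less transcript per cell cannot be told apart.

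The arrays differed between conditions in other ways too. The median signal of the monolayer arrays was 48.0 and 48.8, and that of the spheroid arrays 67.3 and 68.4, although the trimmed mean was 500.1 on all 4. The ratio of the 3' to the 5' probe set of ACTB, a measure of RNA integrity and labelling, was 1.32 and 1.30 for monolayers and reached 1.76 and 1.73 for spheroids. The same ratio of GAPDH did not separate the conditions, with 0.897 and 0.882 for monolayers and 0.868 and 0.951 for spheroids. The epithelial markers EPCAM, KRT8, KRT18 and KRT19 had signals from 16249 to 32967 on every array, whereas the colon markers CDX1 and GPA33 lay below the filter. The other colon markers CDX2, VIL1 and CEACAM5 were dim, with signals of 33.1 to 81.6, 16.1 to 90.7 and 17.5 to 204. For CDX2 and CEACAM5 the lines moved in opposite directions. Of the 10 such markers 8 were tested, of which 4 rose and none fell, against backgrounds of 30.6% and 18.5% of all genes tested. CDH1 rose most, by 2.36, from 916 and 889 in monolayers to 4493 and 4866 in spheroids. EPCAM and KRT19 rose by 0.38 and 0.40, but had values of -0.22 and -0.19 when arrays were scaled on their hybridisation controls. CDH1 and VIL1 had 1.76 and 0.83 there. Among the 4, VIL1 had monolayer signals of 16.1 and 28.8, both under the filter signal of 30.6. It was tested only through its spheroid arrays, with 90.7 and 73.6. Of 7 fibroblast markers 4 were tested and 2 rose, with summed signals of 497 and 502 in monolayers and of 2481 and 4116 in spheroids. COL1A1 made up 303 and 338 of the monolayer sums and 2275 and 3780 of the spheroid sums. The other marker that rose, COL3A1, had 29.5 and 6.56 in monolayers and 57.4 and 79.8 in spheroids. It too was tested only through its spheroid arrays. Of 4 leukocyte markers on the array, 2 were tested and only LYZ rose, with summed signals of 123 and 62.0 in monolayers and of 401 and 368 in spheroids. LYZ itself had 32.0 and 9.61 in monolayers and 290 and 328 in spheroids. Like COL3A1, it passed the filter only through its spheroid arrays. The defining leukocyte marker PTPRC had signals between 6 and 42, and the 4 endothelial markers summed to between 138 and 278, of which 1 was tested and none was called. None of these markers was listed at 0, and their part in the results below was not tested.

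Most of the family did not pass the test in a comparison in which many other genes did. Of the 28 tested member probe sets, 2 rose in spheroids, those of BCL2L11 and BIK, against a background of 25.5% of all probe sets. A single one fell, for MCL1, against a background of 14.6%. The remaining 25 did not pass the test. The median change of the 28 was 0.01, beside 0.23 for all probe sets tested. Monolayer and spheroid signals did not overlap for 15 of the 28, and for 69.3% of all probe sets.

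**Figure D1:**
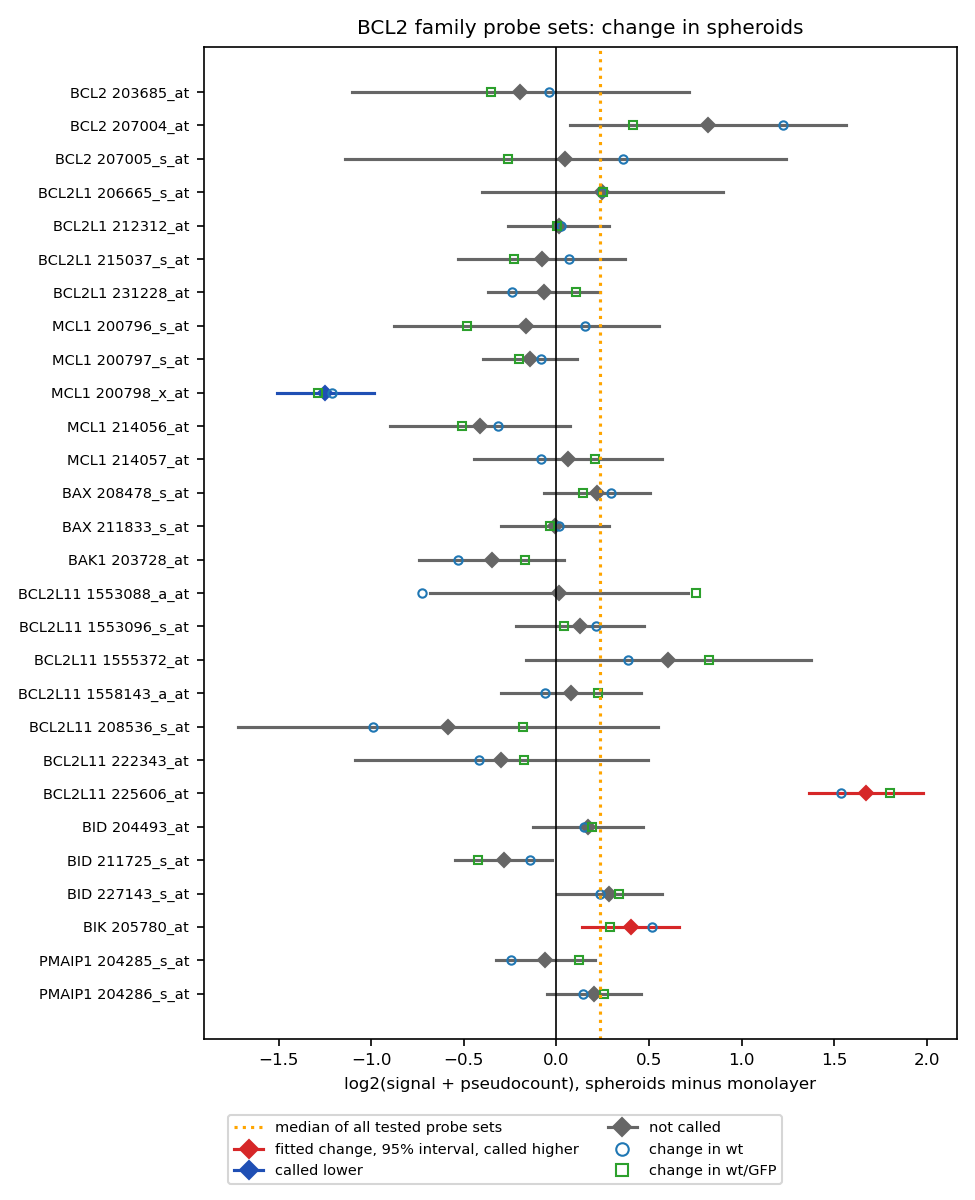
Log2 change, spheroids minus monolayer, of the 28 tested member probe sets. Filled diamonds and bars are the fitted change with its 95% interval, open circles the change in wt, open squares the change in wt/GFP, and the dotted line the median of all tested probe sets, 0.23. The probe set 225606_at of BCL2L11 lies at 1.67 and 200798_x_at of MCL1 at -1.25, whereas all others lie between -0.59 and 0.82.

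BCL2L11 encodes BIM, a BH3-only protein that binds all the main guardians. One of its 7 probe sets, 225606_at, had the largest change among the tested member probe sets. Its signal was 437 in the wt monolayer and 561 in the wt/GFP monolayer, and 1295 and 1989 in the corresponding spheroids. Both spheroid arrays were thus above both monolayer arrays, by 2.96-fold in wt and by 3.54-fold in wt/GFP on the linear scale. The fitted log2 change was 1.67 ± 0.15 (SE, 2 arrays per condition, adjusted p = 1.13e-09), a 3.18-fold rise. This was 1.44 above the median of all probe sets and at percentile 95.6 of their changes. The rise was called under all 4 scalings of the arrays, with values of 1.56 for quantile normalization and 1.28 for median centring. With each array set level on its hybridisation controls, which are control transcripts added for the hybridisation (control scaling), the value was 1.08. In a fit without a trend, which borrows less from probe sets of like brightness, the rise was still called but with an adjusted p of 0.0479.

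The start of BCL2L11 is shown because the gene is a known FOXO target and because FOXO1 and FOXO3 are among the genes measured below. The 250 bases before its annotated start lie at chr2:111120664-111120913 on the plus strand of GRCh38.p14, and the sequence comes from RefSeq's promoter table of that build. Capitals mark GTAAACA, the FOXO element, which was searched on both strands and chosen after the promoters had been read.

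BCL2L11: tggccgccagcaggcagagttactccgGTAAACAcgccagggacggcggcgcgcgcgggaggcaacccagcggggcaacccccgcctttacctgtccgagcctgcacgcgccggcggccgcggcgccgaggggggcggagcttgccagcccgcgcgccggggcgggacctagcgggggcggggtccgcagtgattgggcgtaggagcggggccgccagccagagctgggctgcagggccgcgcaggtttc

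The element occurs once, starting 223 bases before the annotated start, in a window of 76.8% G and C. The same letters occur in 2.98% of the 35116 windows of that length in the table. Of the 13 windows listed for 8 of the member genes, this was the only one that held them. Such a match is a description of the letters and not a site of binding.

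The other 6 probe sets of BCL2L11 did not follow 225606_at. The brightest of them, 1553096_s_at, had signals of 509 and 596 in the wt and wt/GFP monolayers and of 593 and 614 in the spheroids. Its change of 0.13 ± 0.17 had a 95% interval of -0.22 to 0.47, which does not reach the change of 225606_at. Next came 1558143_a_at, with 447 and 429 in monolayers and 427 and 503 in spheroids, and a change of 0.08 ± 0.18 (95% interval -0.30 to 0.46). In both the conditions overlapped.

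The 4 dimmer probe sets scattered more. The first of these, 1555372_at, had signals of 97.0 and 51.0 in monolayers and 131 and 101 in spheroids. Its spheroid arrays were above its monolayer arrays, but the change of 0.60 ± 0.37 did not pass the test (adjusted p = 0.212). For 1553088_a_at the lines moved in opposite directions, from 162 to 92.5 in wt and from 112 to 198 in wt/GFP.

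Values on the lower side came from the remaining pair. In monolayers 222343_at had signals of 74.6 and 121, and in spheroids of 52.3 and 106, a change of -0.30 ± 0.38. The dimmest, 208536_s_at, went from 52.6 and 51.1 in monolayers to 19.5 and 43.5 in spheroids, a change of -0.59 ± 0.55. Neither passed the test (adjusted p = 0.576 and 0.429). The uncalled probe sets of the gene thus ran from -0.59 to 0.60 with a median of 0.05.

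**Figure D2:**
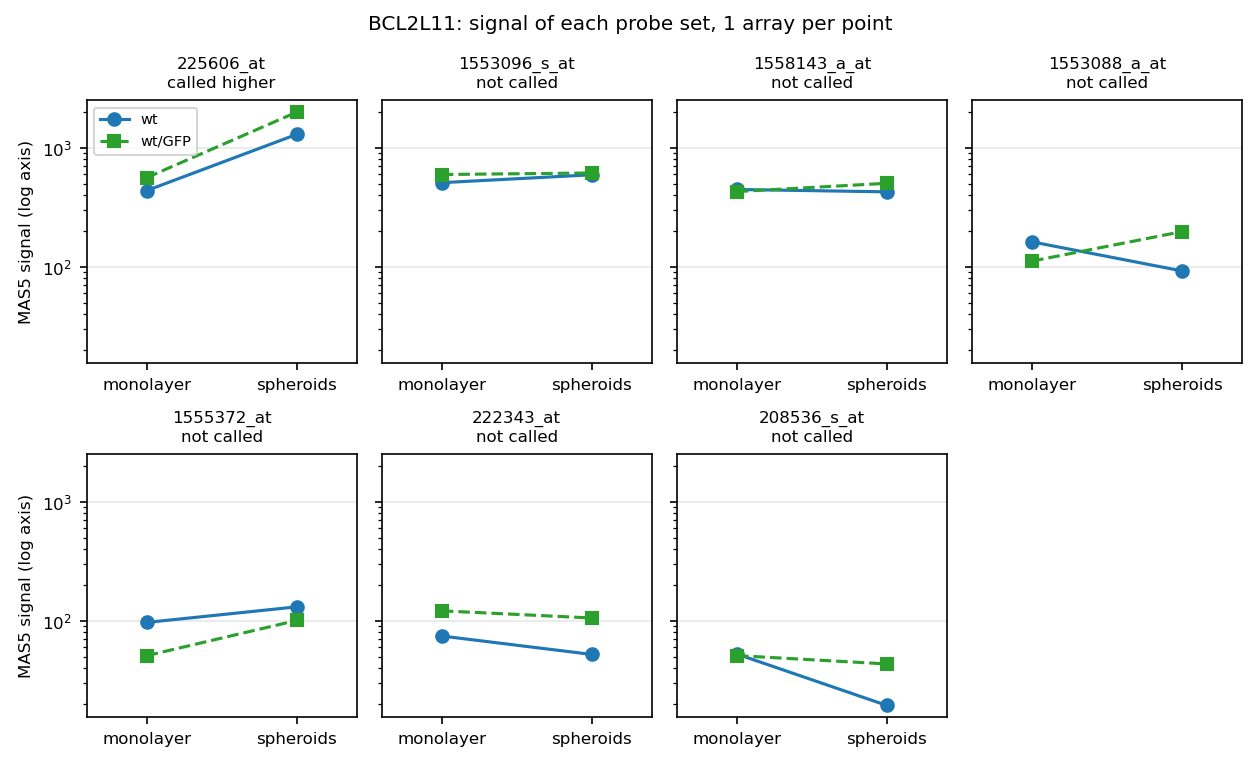
MAS5 signal on a log axis of each of the 7 probe sets of BCL2L11 in monolayer and spheroids, 1 array per point, with lines joining the arrays of wt (circles) and wt/GFP (squares). In 225606_at both lines rise, from 437 and 561 to 1295 and 1989, while none of the other 6 probe sets was called. In 1555372_at both lines are also higher in spheroids, from 97.0 and 51.0 to 131 and 101.

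The annotation ties 1553088_a_at, 1553096_s_at and 208536_s_at to transcripts that are still in RefSeq, and ties the other 4, 225606_at among them, to GenBank records. Only accessions were compared with RefSeq's transcript list, and a GenBank accession cannot match it. Whether the sequences of these 4 lie in current transcripts was not tested. Where each probe set lies along the gene was not analysed here, and the part of transcript ends, splice forms and the higher 3' to 5' ratio of ACTB in spheroids was not tested. Over the 7 probe sets the changes spanned 2.25 log2 units. Among the 598 genes with at least 5 tested probe sets the median span was 1.19, and 10.2% of them spanned as much as BCL2L11 or more. When all 7 were averaged before the fit, the change of BCL2L11 was 0.23 ± 0.21 (adjusted p = 0.412), so the call for the gene rests on 225606_at.

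The genes whose pattern over the 4 arrays was most like that of 225606_at, by Euclidean distance of the centred log2 values, were MIR570HG (0.0457), ABTB1 (0.0629) and WWOX (0.0685). Their fitted changes were 1.69, 1.65 and 1.68. In all of them, as in 225606_at, the wt/GFP spheroid array was the highest and the wt monolayer array the lowest. Both likenesses follow from the way these genes were picked and are no separate result.

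BIK, a BH3-only protein of the endoplasmic reticulum, has a single probe set, 205780_at. It had signals of 1906 and 2460 in the wt and wt/GFP monolayers and of 2727 and 3005 in the spheroids. Every spheroid array was above every monolayer array, and wt/GFP was above wt by 0.25 on the log2 scale. BIK rose by 0.40 ± 0.13 (1.32-fold, adjusted p = 0.0133) with the deposited scaling and by 0.46 after quantile normalization, but had values of 0.0095 after median centring (adjusted p = 0.965) and -0.19 under control scaling (adjusted p = 0.666). Relative to all probe sets the change was 0.17, at percentile 59.3. The call was also lost without the wt monolayer array (change 0.22, adjusted p = 0.422), without the wt/GFP spheroid array (0.33, adjusted p = 0.136) and in a fit without a trend (adjusted p = 0.206).

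BID, which caspase 8 cleaves to carry death receptor signals to mitochondria, had 3 probe sets, and none was called. The brightest, 211725_s_at, had signals of 3242 and 3303 in monolayers and 2937 and 2455 in spheroids, a change of -0.28 ± 0.13 (adjusted p = 0.0779). It was called without the wt spheroid array (-0.41, adjusted p = 0.0205), after median centring (-0.68), under control scaling (-0.88) and, at adjusted p = 0.0485, with a stricter filter. The other probe sets had values in the opposite direction, 0.17 ± 0.14 for 204493_at and 0.29 ± 0.14 for 227143_s_at, but these were -0.22 and -0.11 after median centring and -0.42 and -0.31 under control scaling, not called. For each of the 3 the monolayer and spheroid signals did not overlap, and the lines moved in the same direction.

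PMAIP1, a BH3-only protein that targets MCL1, was bright on every array and did not pass the test. The probe set 204285_s_at had signals of 7910 and 7990 in monolayers and 6676 and 8707 in spheroids, a change of -0.06 ± 0.13 (95% interval -0.33 to 0.21). The spheroid arrays lay on either side of the monolayer arrays. Those of 204286_s_at were 5129 and 5348 in monolayers and 5669 and 6393 in spheroids, with a change of 0.20 ± 0.12 (adjusted p = 0.207). It was called higher after quantile normalization (0.36, adjusted p = 0.0117), whereas 204285_s_at was called lower after median centring (-0.45) and under control scaling (-0.65).

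MCL1, the guardian that neutralises BIM, NOXA and BAK, has 6 probe sets, and they split. The signal of 200798_x_at was 3392 and 3583 in the wt and wt/GFP monolayers and 1457 and 1462 in the spheroids. The lines were close together and the conditions far apart. The log2 signal fell by 1.25 ± 0.13 (2.37-fold, adjusted p = 9.90e-09). It fell under all 4 scalings, by 1.21 after quantile normalization and 1.84 under control scaling. In a fit without a trend the fall was still called but with an adjusted p of 0.0488. The suffix _x_at marks probe sets with probes that can also bind other transcripts, and the part of such binding was not tested.

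The brightest MCL1 probe set, 200797_s_at, showed no such fall. It had signals of 5348 and 5469 in monolayers and 5050 and 4750 in spheroids, a change of -0.14 ± 0.12 with a 95% interval of -0.40 to 0.11. It was called lower after median centring (-0.53) and control scaling (-0.73). The probe set 214056_at had 263 and 288 in monolayers and 209 and 198 in spheroids, a change of -0.41 ± 0.24 (adjusted p = 0.175). The conditions did not overlap there, and it was called lower under the 3 other scalings.

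The 3 dimmest MCL1 probe sets gave no common picture. The change of 214057_at was 0.06 ± 0.25 and that of 200796_s_at -0.16 ± 0.35, and in both the lines moved in opposite directions. The sixth, 227175_at, was just below the filter, with signals of 66.8 and 76.0 in monolayers and 10.4 and 7.32 in spheroids. Both lines were lower in spheroids, and without the filter its change was -1.90 ± 0.59 (adjusted p = 0.0298). It was the only member probe set called lower when shared probe sets, whose suffix _s_at, _x_at or _a_at marks probes common to several transcripts, were left out, since 200798_x_at is one of them. The tested MCL1 changes spanned 1.31 log2 units, and 42.0% of genes with at least 5 tested probe sets spanned as much or more. The mean of the gene's tested probe sets gave -0.38 ± 0.13 (adjusted p = 0.049), whereas its brightest probe set alone was not called.

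**Figure D3:**
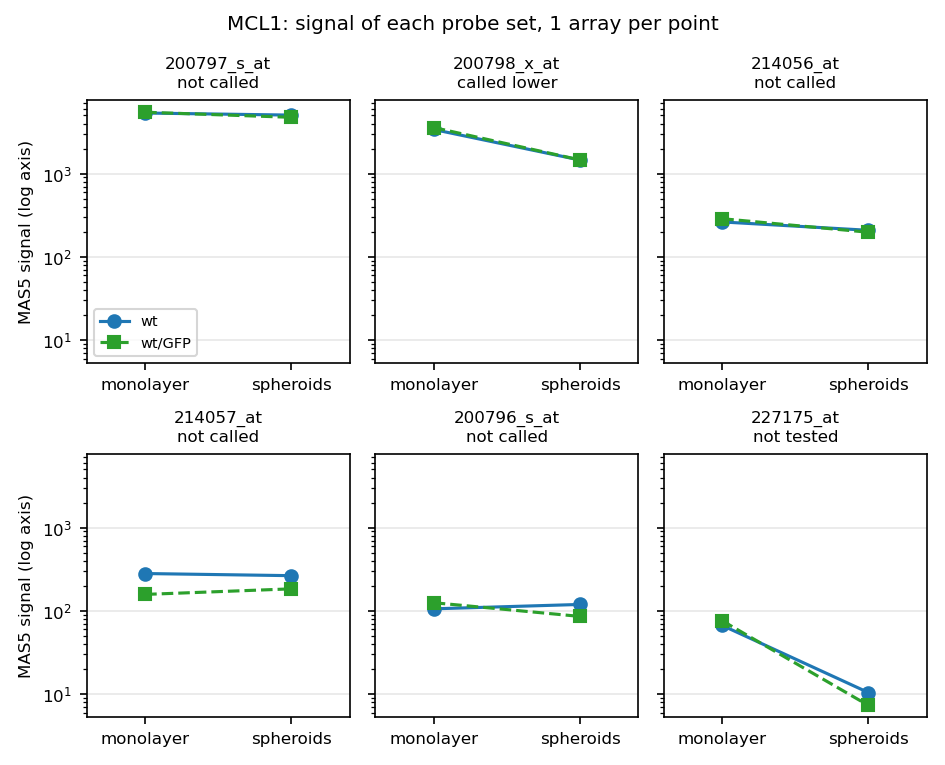
MAS5 signal on a log axis of each of the 6 probe sets of MCL1, 1 array per point, with lines joining the arrays of wt (circles) and wt/GFP (squares). In 200798_x_at both lines fall from 3392 and 3583 to 1457 and 1462, whereas 200797_s_at stays between 4750 and 5469.

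BCL2L1, which encodes BCL-XL, had no probe set that passed the test. In 212312_at, its brightest probe set, signals were 1468 and 1638 in monolayers and 1492 and 1640 in spheroids, so the change was 0.01 ± 0.13 (95% interval -0.26 to 0.29). Monolayers and spheroids overlapped in all 4 of its probe sets. The others had values of -0.07 ± 0.15 for 231228_at, -0.08 ± 0.22 for 215037_s_at and 0.25 ± 0.32 for 206665_s_at. After median centring 212312_at and 231228_at were called lower (-0.38 and -0.46), and neither was called under control scaling.

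BCL2, the founding guardian, was dim in all 4 of its probe sets, with signals from 4.24 to 155. The highest mean belonged to 207004_at, with 44.7 and 113 in the wt and wt/GFP monolayers and 123 and 155 in the spheroids. The spheroid arrays were above the monolayer arrays, but the wt/GFP monolayer was close to the wt spheroids, and the change of 0.82 ± 0.36 did not pass the test (adjusted p = 0.0744). It was called without the wt/GFP monolayer array (1.38, adjusted p = 0.0183) and with a stricter filter (adjusted p = 0.0424). Without the wt monolayer array its value was 0.26 (adjusted p = 0.664), and under the 3 other scalings it was between 0.23 and 0.43, not called. The changes of 203685_at and 207005_s_at were -0.19 ± 0.44 and 0.05 ± 0.58, and 203684_s_at lay below the filter, with lines that moved in opposite directions.

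Neither effector passed the test. BAX had signals of 1081 and 1088 in monolayers and 1328 and 1204 in spheroids in 208478_s_at, a change of 0.22 ± 0.14 (95% interval -0.07 to 0.51). Its second probe set, 211833_s_at, had a change of -0.0092 ± 0.14, and was called lower after median centring (-0.40). BAK1, measured by 203728_at alone, had signals of 465 and 472 in monolayers and 318 and 418 in spheroids. Both spheroid arrays were lower, and the change was -0.35 ± 0.19 (adjusted p = 0.151). BAK1 was called lower without the wt/GFP spheroid array (-0.54, adjusted p = 0.0347), after median centring (-0.74), after quantile normalization (-0.62) and under control scaling (-0.94).

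The directions in the family depended on how the arrays were scaled. Median centring and control scaling each move the changes of all probe sets by the same amount. The lower calls of single members under them are therefore not separate results. The mean log2 value of the hybridisation controls was 12.03 (wt) and 11.77 (wt/GFP) in monolayers, and 12.44 and 12.54 in spheroids. Control scaling thus shifted the lines unequally. The median change of all tested probe sets was 0.23 as deposited, -0.03 after quantile normalization, -0.16 after median centring and -0.36 under control scaling, and higher ones made up 63.5%, 48.7%, 32.6% and 19.7% of the calls. The member medians moved with it, from 0.01 to -0.17, -0.38 and -0.58. Calls over all probe sets went from 8342 higher and 4795 lower to 5699 and 6008, 4269 and 8810, and 2022 and 8266. Calls among the members went from 2 higher and 1 lower to 3 and 4, 1 and 9, and 1 and 6 in the same order. With quantile normalization 29 member probe sets passed the filter, and 1 of the 4 lower calls was 227175_at of MCL1, which was not tested with the deposited scaling. Only 225606_at of BCL2L11 and 200798_x_at of MCL1 were called in the same direction under all 4.

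**Figure D4:**
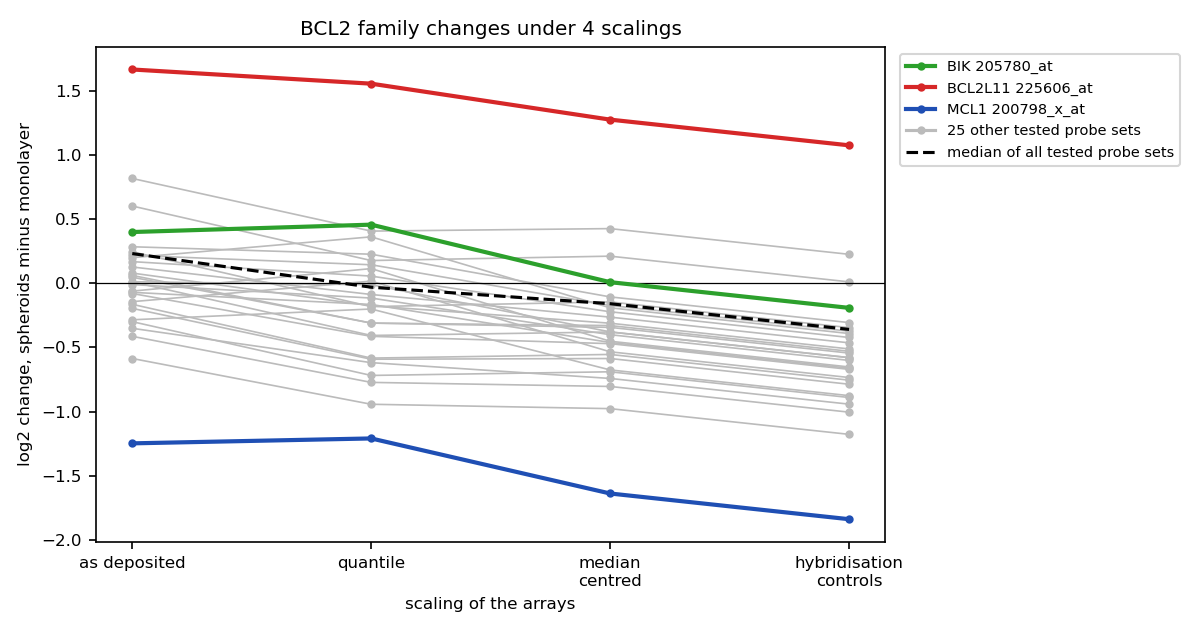
Log2 change, spheroids minus monolayer, of the 28 tested member probe sets under 4 scalings of the arrays, 1 line per probe set, with the median of all tested probe sets dashed. The BCL2L11 probe set 225606_at stays above 1.07 and the MCL1 probe set 200798_x_at below -1.20, whereas BIK goes from 0.40 to -0.19.

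Between the lines, 0 of the 28 member probe sets were called by limma, against a background of 0.0183%. At an unadjusted p under 0.05 there were 2 of the 28, beside 5.74% of all probe sets, and they are named here after their values were seen. The signal of 225606_at of BCL2L11 was higher in wt/GFP than in wt by 0.48 ± 0.15 (adjusted p = 0.614), in monolayer and in spheroids. That of 214057_at of MCL1 was lower in wt/GFP by 0.64 ± 0.25 (adjusted p = 0.797). With 1 array per line and condition, whether the change in culture differs between the lines could not be tested.

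Around the family, 60 other genes of apoptosis in 6 lists were tested with 1 probe set per gene. Of these, 15 rose and 15 fell, against backgrounds of 30.6% and 18.5% of the 14349 genes tested. Their median change was 0.05, beside 0.23 for all genes. After control scaling 4 rose and 23 fell. In that setting 2022 of all probe sets were called higher and 8266 lower, beside 8342 and 4795 as deposited. Without probe sets shared between transcripts, 42 of these genes were tested, and 8 rose and 10 fell. There 5402 of all probe sets were called higher and 2374 lower. Shares over all genes are not given for these settings.

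Of 12 tested other genes of the BCL2 family, 3 rose, 1 fell and 8 were not called. The mitophagy receptors BNIP3L and BNIP3, which carry a BH3-like stretch and are induced by low oxygen, rose by 3.09 ± 0.12 and 1.46 ± 0.11. BNIP3L went from 1327 and 1290 in monolayers to 10811 and 11685 in spheroids. The BH3-only gene BMF, outside the rule for naming and chosen after its value was seen, also rose, by 1.10 ± 0.45 (adjusted p = 0.0455), although its wt/GFP monolayer signal of 88.4 was above its wt spheroid signal of 86.2. BCL2L12, a family relative that inhibits caspases, fell by 1.83 ± 0.14. When shared probe sets were left out it was not tested, and neither were APAF1, AIFM1, BIRC6, TOMM22 and FOXO1, named below.

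Downstream of the pore, 2 of 11 genes of the apoptosome and caspases rose, 3 fell and 6 were not called. APAF1, the scaffold of the apoptosome, rose by 1.28 ± 0.18, and by 0.69 with the call lost under control scaling (adjusted p = 0.0588). CASP9, the caspase that it activates, rose by 0.66 ± 0.17, but the call was lost under each other scaling. Another CASP9 probe set, read when shared ones were left out, had a value of -0.0043. AIFM1, a mitochondrial flavoprotein, fell by 0.66 ± 0.13, a call lost without a trend.

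Of 5 inhibitors of apoptosis, 3 rose and 2 fell. BIRC5 (survivin), which also serves in mitosis, fell by 1.91 ± 0.12, from 9025 and 8919 to 2586 and 2184. CFLAR, an inhibitor of caspase 8, fell by 1.86 ± 0.16. Another CFLAR probe set, read when shared ones were left out, had a value of 0.85, not called. BIRC6 rose by 0.67 ± 0.13, with values of 0.28 after median centring and 0.076 under control scaling, neither of them called.

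Of 7 death receptor genes, 2 rose and 2 fell. The ligand TNFSF10 (TRAIL) rose by 2.25 ± 0.59 from signals of 17.8 and 2.61 in monolayers to 88.2 and 103 in spheroids. Both monolayer signals were under the filter signal of 30.6, so the gene was tested only through its spheroid arrays, and it was not tested with a stricter filter or without a pseudocount. Its receptor TNFRSF10B rose by 0.55 ± 0.11, a value that became -0.04 under control scaling. The receptor TNFRSF10A fell by 0.49 ± 0.13, with the call lost without the wt monolayer array (-0.48, adjusted p = 0.0657).

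Among 6 genes of outer membrane channels and import none rose and 3 fell. TOMM22, a receptor of the import complex, fell by 1.42 ± 0.12 and MTCH2, a receptor for cleaved BID, by 1.06 ± 0.12. Another MTCH2 probe set, read when shared ones were left out, had a value of -0.02. VDAC3, a voltage-dependent anion channel, fell by 0.57 ± 0.12, a call lost without the wt/GFP spheroid array (-0.50, adjusted p = 0.0748).

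Of 19 regulators of the members, 5 rose and 4 fell. FOXO1 rose by 1.57 ± 0.23, from 142 and 152 in monolayers to 469 and 453 in spheroids. FOXO3 rose by 0.94 ± 0.12, from 2071 and 2014 to 3880 and 3984, and had a value of 0.35 under control scaling (adjusted p = 0.405). DYNLL2, a dynein light chain that tethers BMF to the cytoskeleton, fell by 0.91 ± 0.12.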

How the data were processed

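Biotin-labelled material made from total RNA was hybridised to 4 arrays, per the labels' protocols. The values are intensities on a linear scale that the authors deposited, per the submitters' processing notes MAS5 signals, with version, settings and build not given in the sources used here. Every array had the same trimmed mean, so a broad change in RNA content is not visible. Probe sets were named from the platform annotation, with symbols updated through RefSeq's gene table (41037 of 41091 with 1 symbol).

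Signals were transformed as log2(signal + 14.0), the pseudocount being the 25th percentile. Non-control probe sets above the 40th percentile of mean log2 value, 5.48 or a signal of 30.6, were kept (32768). They were fitted with limma 3.58.1 in R 4.3.3 on culture condition and cell line, with trended empirical Bayes moderation and two-sided tests. With 1 residual degree of freedom and a prior worth 24.9, an SE rests mainly on probe sets of like brightness. The other lists used 1 probe set per gene, the brightest (14349 genes). Pairing is by the labels' cell line. Across probe sets, the line differences in the monolayers and in the spheroids had a correlation of -0.00322.

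Alternatives were other scalings (quantile, median centring and hybridisation controls), pseudocounts, filters, moderation, no block, gene-level fits, no shared probe sets (suffix _s_at, _x_at or _a_at) and leaving out each array. A simulation of the spheroid against monolayer comparison changed 200 of 32768 probe sets, with noise of the fitted size and no difference between lines. In it 63% of 2-fold and 85% of 4-fold changes were recovered and 14 unchanged probe sets were called. In the data 40.1% of all tested probe sets were called, so these rates do not tell how many real changes the fit would find. Members and lists were chosen with earlier results of these data known. All members are named, with up to 3 tested genes of the largest change per list, and the 3 genes most like 225606_at.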

Additional observations from a re-analysis of the deposited data

Results flagged for a closer look

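In 9 of the 28 tested member probe sets the change had opposite signs in the lines, as it did in 22.2% of all tested probe sets. With 1 array per line and condition this difference was not tested, and none of the 9 was called. The widest was 1553088_a_at of BCL2L11, where the change in wt/GFP minus that in wt was 1.48 log2 units, and 1558143_a_at of the same gene had 0.29. For MCL1 the difference was -0.64 in 200796_s_at and 0.29 in 214057_at. For BCL2L1 it was -0.30 in 215037_s_at and 0.35 in 231228_at. BCL2 had -0.62 in 207005_s_at, PMAIP1 0.37 in 204285_s_at and BAX -0.048 in 211833_s_at.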

How the results depend on the processing

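Of the 6 counts reported, that of called BCL2L11 probe sets (1) and that of member probe sets called between the lines (0) were the same under every alternative run for them. The 2 higher member probe sets became 1 after median centring, 1 after control scaling, 1 without a trend and 1 to 3 when an array was left out. The 1 lower probe set became 4 after quantile normalization (1 of them 227175_at, below the filter as deposited), 9 after median centring, 6 after control scaling, and 2 with the median signal as pseudocount, with no filter or with a stricter one. It became 0 at gene level, and was 1 or 2 when an array was left out. The 15 higher pathway genes became 7 after median centring, 4 after control scaling, 8 without shared probe sets, 6 without a trend and 13 or 14 when an array was left out. The 15 lower ones became 31, 23 and 7 under median centring, hybridisation controls and no trend, and 11 to 14 when an array was left out. Without the cell line block the counts were 2 and 1 for members and 13 and 15 for the pathway, and no member call changed. Calls over all probe sets also moved with the scaling, as given above, and were 2180 higher and 677 lower without a trend.

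Values that changed sign were those of BCL2L1 212312_at (-0.38, median centring), BIK (-0.19) and TNFRSF10B (-0.039, both hybridisation controls), and CASP9 (-0.0043) and CFLAR (0.85, both without shared probe sets). A further 49 of 661 values changed sign with neither value called. The cause was not tested. Fits that left out an array had no block, since no residual would have remained. Dim probe sets had wide intervals: of the 25 uncalled member probe sets, 19 had a 95% interval within 1 log2 unit of 0.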
